A study of Rattus norvegicus with 4 samples.

Results

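A set of 10 genes of fat uptake, storage and fat-cell identity was followed across whole cultured ovaries of the neonatal rat: Pparg, Adipoq, Cfd, Plin1, Lpl, Cd36, Fabp4, Acsl1, Scd and Car3. A probe set (a group of short probes for 1 transcript) was taken where the array's annotation gave exactly 1 of these 10 symbols, which gave 14 probe sets of the 31042 on the array and 10 of 14217 genes with such a probe set. The genes were chosen by their signals on these same 4 arrays, compared by treatment and by replicate number, so their values in both comparisons are a description and carry no test. Ovaries of 4-day-old rat pups were kept for 2 days on floating filters in medium with 200 ng/ml insulin, transferrin, ascorbic acid, antibiotics, 0.1% BSA and 0.1% albumax, a lipid-rich albumin. The control arrays had no added factor, and the other arrays had glial cell line-derived neurotrophic factor (GDNF) at a dose not given in the sources used here. Groups were taken from the sample titles, since the protocol text of the GDNF samples is worded as for controls. There were 2 control and 2 GDNF samples, each from 6 to 10 pooled ovaries and 1 Affymetrix array, with no animal giving both ovaries to a group. The labels name no strain, and nothing says whether equal replicate numbers mark a shared litter, culture or array run, so the spread between samples may be partly technical.

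Fat enters a cell from lipoproteins after lipoprotein lipase, Lpl, releases fatty acids at the vessel wall, and Cd36 helps them across the membrane. Inside, Fabp4 carries them, Acsl1 couples them to coenzyme A and Scd adds a double bond, while Plin1 coats the droplet in which fat cells store triglyceride. Pparg is the nuclear receptor that drives fat-cell formation, and Adipoq (adiponectin) and Cfd (adipsin) are secreted by mature fat cells. Car3, a cytosolic carbonic anhydrase, is abundant in fat cells and slow skeletal muscle. Several of these genes are not particular to fat: capillary endothelium and macrophages make Fabp4 and Cd36, and macrophages also make Lpl. Ovarian cells use fatty acids and sterols for membranes and steroids.

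Promoter windows (250 bases before to 50 after a start site, RefSeq, build GRCr8) were given for 7 of the 10 genes, 8 windows in all, with none for Fabp4, Car3 or Lpl. The windows of Cd36 and Adipoq are printed because Cd36, of the genes with a window and a signal above the filter described below, differed most between arrays, and Adipoq is the hormone that defines the fat cell. Capitals mark every match to a searched motif, on either strand. The Cd36 window lies at chr4:18246332-18246631 on the + strand and the Adipoq window at chr11:91240120-91240419 on the - strand, each written 5′ to 3′ in the direction of the gene.
Cd36: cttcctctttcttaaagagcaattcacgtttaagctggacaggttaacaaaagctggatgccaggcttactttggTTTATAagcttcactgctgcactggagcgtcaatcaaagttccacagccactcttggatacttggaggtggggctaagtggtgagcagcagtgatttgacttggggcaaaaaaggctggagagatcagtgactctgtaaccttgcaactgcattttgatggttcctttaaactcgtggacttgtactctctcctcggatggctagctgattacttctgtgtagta
Adipoq: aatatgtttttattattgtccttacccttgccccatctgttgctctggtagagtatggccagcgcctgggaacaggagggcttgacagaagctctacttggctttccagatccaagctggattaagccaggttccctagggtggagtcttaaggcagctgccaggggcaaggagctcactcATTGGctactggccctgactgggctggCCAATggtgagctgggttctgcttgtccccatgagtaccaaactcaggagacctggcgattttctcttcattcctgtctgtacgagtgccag
The direct repeat bound by PPAR receptors, AGGTCANAGGTCA, was in 0 of the 8 windows and in 0.0538% of all 33465 windows of the same length, and its half-site AGGTCA, which the repeat contains, was in 0 of 8 and 16.2%. The C/EBP motif TTGCNNAA was in 2 of 8 windows (Plin1 and 1 of the windows of Pparg) and 10.6% of all. TATAAA was in 2 of 8 (Cd36 and the other window of Pparg) and 14.2% of all, and in Cd36 it lay on the opposite strand at -175 from the start site. CCAAT was in 4 of 8 and 37.5% of all, and Adipoq held it at -69 on the opposite strand and at -42. These matches describe the letters of the windows, and no factor was measured on them.

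Signals are MAS5 values on a linear scale, where MAS5 combines the probes of a probe set into 1 number and brings all arrays to a common mean. Median signal was 36.7 to 41.1 over the arrays. A probe set was tested where its mean over the 4 arrays reached the 40th percentile, a signal of about 21.4. Of the 14 member probe sets, 7 passed, measuring 6 genes (Lpl, Cd36, Fabp4, Acsl1, Scd and Car3). The single or brightest probe sets of Pparg, Adipoq, Cfd and Plin1 did not. The label of fat-cell genes therefore has little support from fat-cell markers. Of the 8 fat-cell markers listed, 7 were on the array under their own symbol and only Lipe and Pnpla2, enzymes of triglyceride breakdown made in many tissues, lay above the filter. Leptin (Lep) had 5.8 and 2.0 without GDNF, against 6.0 and 0.6 with it, and Cidec, a droplet protein of fat cells, had 0.4 to 1.0 on all arrays. The genes are called fat-handling genes below as a short name, which does not describe Car3, a carbonic anhydrase, or the secreted Adipoq and Cfd. Probes differ in brightness, so a signal below the filter does not show that a transcript was absent. Apart from the filter, the choice of the brightest probe set and the summed signals below, different probe sets are not set against each other. In whole ovaries, fewer cells of a type and less RNA per cell cannot be told apart.

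Fabp4 and Car3 differed most between arrays. Fabp4 had a signal of 83.3 and 22.2 on the control arrays (replicate 1 first, here and below), against 32.2 and 8.8 with GDNF. Its highest array was 9.47 times its lowest, control replicate 1 against GDNF replicate 2, and the last of these lay below the filter level. Fabp4 was lower with GDNF within each number, by 2.59-fold at number 1 and 2.52-fold at number 2. It was also lower in replicate 2 within each treatment, by 3.75-fold in control and 3.66-fold in GDNF samples. The treatment groups overlapped, because control replicate 2 lay under GDNF replicate 1, and the replicate numbers did not. On the log2(signal + 1) scale the difference was -1.29 (SE 0.73) for GDNF minus control and -1.81 (SE 0.46) for replicate 2 minus replicate 1. Both SEs, like those below, are limma's moderated ones, from separate fits on all 4 arrays with 1 factor each. The treatment SE therefore also holds the difference between numbers, and the number SE that between treatments.

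Car3 had a signal of 149.8 and 48.9 in control samples, compared with 49.2 and 21.5 in the GDNF samples. Its other probe set, below the filter, had 37.4 and 12.5 in the control arrays, then 13.5 and 4.5 in the GDNF arrays. Both showed control replicate 1 highest, GDNF replicate 2 lowest and the other arrays close together. In the brighter probe set the treatment ratio was 3.04 at number 1 and 2.27 at number 2, control over GDNF. The replicate ratio was 3.06 in control and 2.29 in GDNF samples, replicate 1 over replicate 2. The log2 difference was -1.37 (SE 0.56) for GDNF minus control, where control replicate 2 lay just under GDNF replicate 1 so that the groups overlapped. It was -1.38 (SE 0.45) for replicate 2 minus replicate 1, whose groups were only just apart (48.9 in control replicate 2 and 49.2 in GDNF replicate 1). The dimmer probe set had -1.35 and -1.45.

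These values rested strongly on single arrays. Without control replicate 1 the GDNF minus control difference of Fabp4 was -0.36 and that of Car3 -0.57. Without GDNF replicate 2 they were -0.41 and -0.79. Without control replicate 2 they were -2.22 and -2.17, and without GDNF replicate 1 they were -2.17 and -1.95. With each array left out, replicate 2 minus replicate 1 ran from -2.48 to -1.14 for Fabp4 and from -2.17 to -0.58 for Car3, the values nearest 0 being those without control replicate 1. Among the 18625 probe sets tested, the range over the 4 arrays was the 7th largest for Fabp4 and the 14th largest for Car3. The GDNF minus control difference was the 4th lowest for Fabp4 and the 2nd lowest for Car3, and that between replicate numbers was the 17th and 38th lowest. Both genes were chosen by their values in these comparisons, so extreme ranks follow from the choice and are a description only. Fabp4 also lay near the filter, at percentile 44.1 of all probe sets. Its mean signal was 15.5 in replicate 2 and 20.5 with GDNF, both under the filter level of 21.4. It therefore passed the filter only through its higher arrays.

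**Figure D1:**
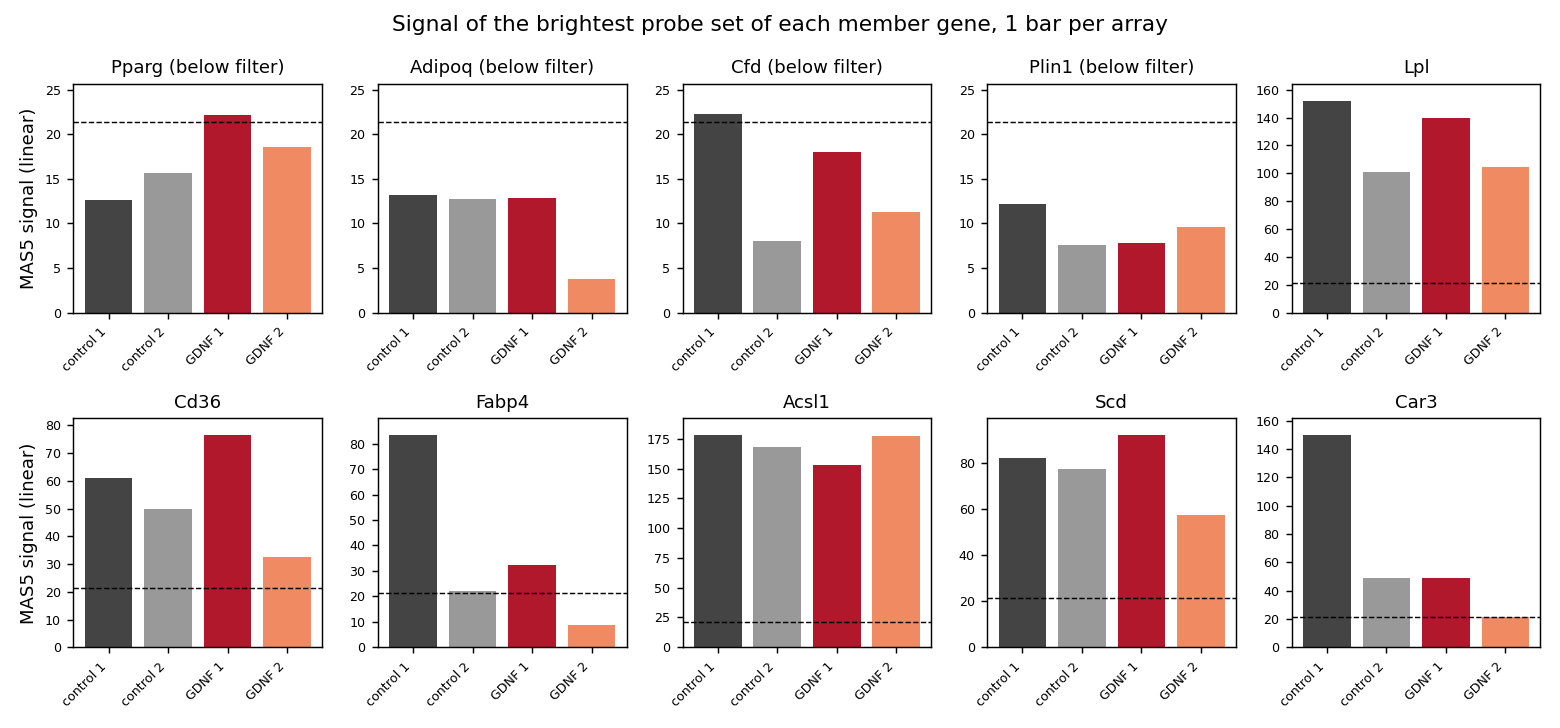
Bars give the linear MAS5 signal of the brightest probe set of each of the 10 genes, 1 bar per array and 1 vertical scale per gene, with the filter level of 21.4 as a dashed line. Fabp4 runs from 83.3 in control replicate 1 to 8.8 in GDNF replicate 2 and Car3 from 149.8 to 21.5, while Acsl1 stays between 153.5 and 178.0.

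Lpl and Cd36, the genes of fatty acid release and uptake, followed the replicate number. Lpl had a signal of 152.2 and 100.7 without GDNF, against 139.8 and 104.7 with it. Both replicate 1 arrays were above both replicate 2 arrays, and the treatments overlapped. The log2 difference was -0.50 (SE 0.15) for replicate 2 minus replicate 1 and -0.03 (SE 0.24) for GDNF minus control. The treatment difference of Lpl changed sign with a single array left out, from -0.33 to 0.26.

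Cd36, also called fatty acid translocase, had 61.1 and 49.9 in control samples, compared with 76.4 and 32.6 in the GDNF samples. The GDNF arrays were the highest and the lowest of the 4. GDNF minus control was 0.32 at number 1 and -0.60 at number 2 on the log2 scale, and -0.14 (SE 0.38) over both. Replicate 2 minus replicate 1 was -0.75 (SE 0.24), -0.29 among control and -1.20 among GDNF arrays, and was -0.45 without GDNF replicate 2. Another 1 probe set names Cd36 beside a second gene and was not used.

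Acsl1 and Scd, which activate and desaturate fatty acids, differed less. Acsl1 had 178.0 and 168.2 in the control arrays, then 153.5 and 177.7 in the GDNF arrays, a log2 difference of -0.07 (SE 0.14) for GDNF and 0.06 (SE 0.14) for replicate number. A second tested probe set of Acsl1 had 95.5 and 91.4 without GDNF, against 88.2 and 87.6 with it (-0.09, SE 0.16), both GDNF arrays lying under both control arrays by a small margin. The last, below the filter, was at 7.1, 6.2, 5.1 and 0.6 in the same order. Across the tested probe sets of Acsl1 the arrays stayed within a ratio of 1.16.

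Scd, the stearoyl-CoA desaturase, had 82.1 and 77.3 in control samples, compared with 91.8 and 57.5 in the GDNF samples. GDNF minus control was 0.16 at number 1 and -0.42 at number 2, and -0.13 (SE 0.25) over both. Replicate 2 minus replicate 1 was -0.38 (SE 0.20), with no overlap, -0.09 in control and -0.67 in GDNF samples. It was -0.59 without control replicate 2 and -0.17 without GDNF replicate 2. Scd2, a close relative that Scd probes may also detect, had 1910.5 and 1853.2 in the control arrays, then 1991.8 and 1502.2 in the GDNF arrays. Both desaturases had their highest signal in GDNF replicate 1 and their lowest in GDNF replicate 2.

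The fat-cell regulator, hormones and droplet protein were dim on every array. Pparg had 12.6 and 15.6 without GDNF, against 22.2 and 18.6 with it. It was the 1 gene of the 10 whose brightest probe set was higher in both GDNF arrays, by 0.77 at number 1 and 0.24 at number 2 on the log2 scale. Adipoq had 13.2 and 12.7 in control samples, compared with 12.9 and 3.8 in the GDNF samples. Only GDNF replicate 2 stood apart for Adipoq, so that GDNF minus control was -0.03 at number 1 and -1.51 at number 2.

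Cfd, a serine protease of the alternative complement pathway as well as a fat-cell product, had 22.3 and 8.0 in the control arrays, then 18.0 and 11.3 in the GDNF arrays. Its replicate 1 arrays lay above its replicate 2 arrays, with a log2 difference of -1.0, while GDNF minus control was 0.08. Plin1 had 12.2 and 7.6 without GDNF, against 7.8 and 9.6 with it, and 3.1, 4.1, 4.0 and 5.5 in its dimmer probe set. The latter ran higher with GDNF (0.32) and the former lower (-0.14). These 4 genes were below the filter and outside the fit, so their differences have no SE.

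**Figure D2:**
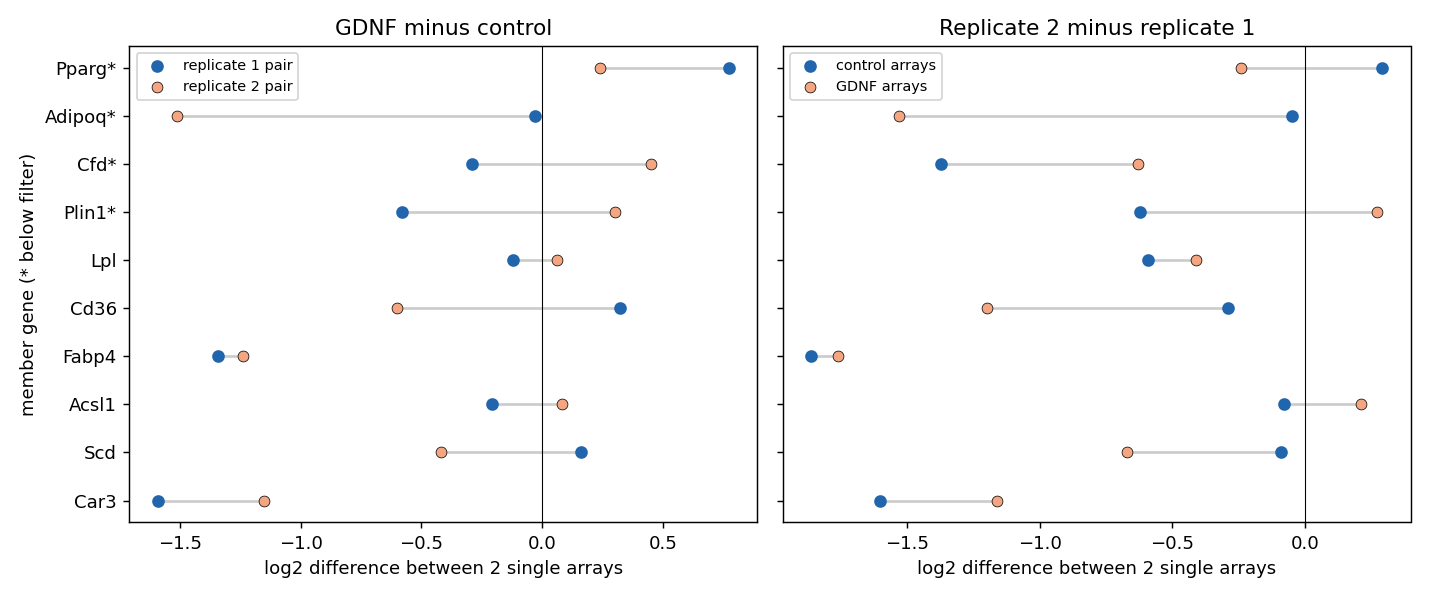
Each point is the log2 difference between 2 single arrays for the brightest probe set of a gene: GDNF minus control at each number on the left, replicate 2 minus replicate 1 within each treatment on the right. Fabp4 and Car3 have both points on the negative side in both panels, whereas Cd36 has 0.32 and -0.60 on the left.

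Of the 14 member probe sets, 8 were lower in both replicate 2 arrays, as were 23.4% of all 31042 probe sets, and 1 was higher (16.8% of all). Between treatments 2 of 14 were lower in both GDNF arrays (16.6% of all) and 1 was higher (13.8% of all). Among the 7 below the filter, 3 were lower in both replicate 2 arrays and 1 was higher, against 24.7% and 10.8% of the 12417 probe sets below it. Taking the brightest probe set of each gene, 7 of 10 were lower in both replicate 2 arrays (19.6% of all 14217 genes) and 0 of 10 in both GDNF arrays (17.8%). Treatment differences had opposite signs at the numbers in 6 of 10 (45.1%). Control replicate 1 was the highest array for 7 of 10 (28.8%) and GDNF replicate 2 the lowest for 5 of 10 (26.5%). The median log2 difference over the 10 genes was -0.62 for replicate 2 minus replicate 1 and -0.14 for GDNF minus control. Over the 6 members above the filter the medians were also -0.62 and -0.14, and over all genes tested, all above it, 0.02 and -0.01. The median of the members between treatments turned to 0.08 without GDNF replicate 2. The median of each array after centring each gene on its mean was 0.35 for control replicate 1, -0.11 for control replicate 2, 0.25 for GDNF replicate 1 and -0.34 for GDNF replicate 2.

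Over all probe sets tested, the limma test of GDNF against control called 0 of 18625 at an adjusted p under 0.05 (0.0%), and 508 had an unadjusted p under 0.05 (2.73%). Of the 7 member probe sets tested, 0 were called and 1, that of Car3, was among the 508. Between replicate numbers the test called 86 (0.462%), of which 0 were members, and 2388 had an unadjusted p under 0.05 (12.8%), of which 4 were members (Fabp4, Car3, Lpl and Cd36). Of the 86, 16 were higher and 70 lower in replicate 2, and the count was 11 without GDNF replicate 2 and 251 without control replicate 1. With each array centred on its median, which moves the median difference between the numbers by 0.10, the split was 108 higher and 116 lower. Lower signals in both replicate 2 arrays were found in 22.6% of probe sets tested and in 5 of the 7 member probe sets, and higher signals in 20.9% and 0 of 7. Lower signals in both GDNF arrays were found in 16.6% and 1 of 7, the dimmer tested one of Acsl1, and higher signals in 13.4% and 0 of 7. These counts describe genes chosen with the values known, and Fabp4 was among the 7 only through its higher arrays. The pattern of Fabp4 and Car3, highest in control replicate 1 and lowest in GDNF replicate 2, was shown by 12.1% of probe sets tested and 3 of 7 of the members, the other being a probe set of Acsl1. With at least a 4-fold range it was shown by 5 (0.0268%). Beside Fabp4 and Car3 these were Atp8b2, named after its values were seen (38.6 and 38.4 in control, 33.1 and 4.6 in GDNF samples), and probe sets without a single symbol.

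**Figure D3:**
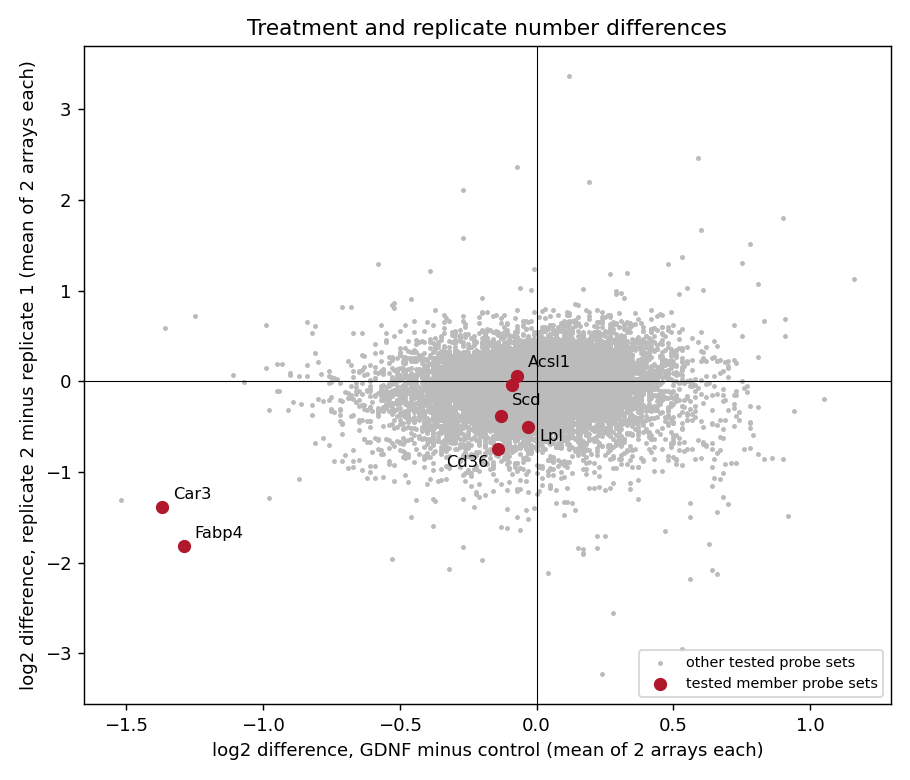
Each point is 1 of the 18625 tested probe sets, with its log2 difference between treatments on the horizontal axis and between replicate numbers on the vertical axis, member probe sets in red. Fabp4 (-1.29 and -1.81) and Car3 (-1.37 and -1.38) lie at the lower left away from the main cloud, and Lpl, Cd36 and Scd lie below 0 on the vertical axis near 0 on the horizontal one.

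Of 10608 genes tested, Car3 was the one nearest to Fabp4 in its profile, with a distance of 0.47 between the centred log2 signals of the 4 arrays. The next 5 genes, all further away at 1.00 to 1.18, were Chi3l1, Il1a, Penk, Acsm3 and Krt71. Chi3l1, a secreted chitinase-like protein, had 191.5 and 83.2 in control samples, compared with 153.2 and 56.2 in the GDNF samples. Il1a, the cytokine interleukin 1 alpha, had 46.3 and 21.3, and 32.4 and 14.4. Penk, the precursor of enkephalins, had 136.0 and 81.6, and 110.9 and 41.6. All 5 had their highest signal in control replicate 1 and their lowest in GDNF replicate 2. A likeness over 4 arrays is a description only.

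Other genes related to the members were read from lists. Of 163 genes in 9 lists on uptake, lipase partners, droplets, fatty acid and triglyceride synthesis, oxidation, adipogenic factors, adipokines and carbonic anhydrases, 150 had a probe set and 108 were tested. Each of the 108 tested genes had smaller differences than Fabp4 and Car3, which was not so of the genes below the filter. Between treatments limma called 0 of the 108, with 46 higher and 62 lower means and a median of -0.03. Unadjusted limma p-values under 0.05 were found for 0 higher and 1 lower list genes, against 130 and 201 of all 10608 genes tested. Over all 10608 genes tested, 5151 means were higher and 5457 lower. Between replicate numbers limma called 0 higher and 1 lower (C3), with 46 higher and 62 lower means and a median of -0.03. Over all genes tested, 9 were called higher and 39 lower, with 5850 higher and 4758 lower means. In both replicate 2 arrays 30 list genes were lower and 17 higher, against 1924 lower and 2741 higher of all genes tested. At an unadjusted limma p under 0.05, 9 list genes were lower and 3 higher, against 555 and 749 of all. C3, the central complement protein, which fat cells also secrete, had 1387.2 and 974.9 in the control arrays, then 1317.0 and 803.2 in the GDNF arrays (-0.61, SE 0.11, limma adjusted p = 0.0336). Without control replicate 1 its adjusted p was 0.0562 and without GDNF replicate 2 it was 0.443, and over the alternatives tried it ran from 0.0026 to 0.443.

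Genes of uptake and activation had a median difference between the numbers of -0.01 over 14 genes, 6 higher and 8 lower, none called. The lowest were the fatty acid transporter Slc27a5 (-0.56, SE 0.27) and Cav2 of caveolae (-0.29, SE 0.16), and the highest Slc27a3 (0.21, SE 0.20) and Fabp5 (0.18, SE 0.10). Fabp5, a carrier that fat cells and macrophages also make, had 861.7 and 930.1 without GDNF, against 885.9 and 1048.3 with it, an order unlike that of Fabp4. Fabp3, the heart-type carrier, had the highest treatment difference of the list (0.23, SE 0.16), and Slc27a5 the lowest (-0.29, SE 0.33).

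Partners of lipoprotein lipase had a median of -0.08 between numbers over 8 genes and 0.04 between treatments, none called. Gpihbp1, which holds Lpl on capillary endothelium, had 102.8 and 103.7 in control samples, compared with 141.7 and 111.1 in the GDNF samples (0.28, SE 0.17). Its replicate 2 arrays were not both lower, unlike those of Lpl. Angptl4, an inhibitor of Lpl, was the lowest with GDNF (-0.21, SE 0.24) and among the highest between numbers (0.23, SE 0.23), with the maturation factor Lmf1 (0.22, SE 0.19). Sel1l (-0.50, SE 0.18) and Vldlr (-0.19, SE 0.13) were the lowest between numbers.

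Droplet and lipolysis genes had a median of -0.09 between numbers over 11 genes, 2 higher and 9 lower, and 0.01 between treatments, none called. Lipe, hormone-sensitive lipase, had 48.0 and 43.5 in the control arrays, then 54.2 and 20.4 in the GDNF arrays, the lowest of the list between numbers (-0.75, SE 0.31) and treatments (-0.44, SE 0.43). Only GDNF replicate 2 stood apart for Lipe. Hilpda was next lowest between numbers (-0.25, SE 0.13), and Pnpla2, the lipase that opens triglyceride breakdown (0.18, SE 0.16), and its activator Abhd5 (0.15, SE 0.14) were the highest. Pnpla3 was the highest between treatments (0.23, SE 0.22).

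Fatty acid synthesis genes had a median of -0.12 between treatments over 13 genes, 2 higher and 11 lower, and 0.02 between numbers, none called. Mid1ip1, an activator of acetyl-CoA carboxylase, had 717.8 and 731.0 without GDNF, against 538.6 and 600.5 with it (-0.35, SE 0.11), with no overlap, and was the 1 gene of the 108 under an unadjusted p of 0.05. Slc25a1 was the highest with GDNF (0.10, SE 0.14). Between numbers the lowest were the elongases Elovl6 (-0.49, SE 0.16) and Elovl2 (-0.25, SE 0.16), and the highest were Me1, the malic enzyme (0.38, SE 0.13), and Slc25a1 (0.18, SE 0.12). Triglyceride synthesis genes had 0.09 between treatments and -0.08 between numbers over 15 genes, none called. Agpat1 was both the highest with GDNF (0.50, SE 0.27) and the lowest between numbers (-0.46, SE 0.25). Gpd1, which makes glycerol phosphate, was the lowest with GDNF (-0.47, SE 0.26) and next lowest between numbers (-0.43, SE 0.25). Agpat3 (0.34, SE 0.16) and Lpin2 (0.24, SE 0.16) were the highest between numbers.

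Fatty acid oxidation genes lay close to 0, with 0.03 between treatments and 0.04 between numbers over 17 genes, none called. Cpt1a, the gatekeeper of mitochondrial uptake (0.32, SE 0.13), and Acadl (0.20, SE 0.11) were the highest between numbers, and Hadh (-0.19, SE 0.13) and Acaa2 (-0.11, SE 0.11) the lowest. Slc25a20 (0.21, SE 0.13) and Cpt1b (-0.20, SE 0.26) bounded the treatment differences. Adipogenic transcription factors had a median of -0.18 between numbers over 15 genes, 4 higher and 11 lower, and -0.02 between treatments, none called. Ppargc1a, the coactivator of Pparg, had 37.8 and 30.0 in control samples, compared with 32.5 and 18.0 in the GDNF samples, the lowest of the list in both (-0.57, SE 0.29 and -0.46, SE 0.34). Klf5 was next lowest between numbers (-0.44, SE 0.20). Prdm16, a factor of brown fat (0.56, SE 0.22), and Ebf1 (0.30, SE 0.32) were the highest, and Cebpd was the highest with GDNF (0.25, SE 0.20).

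Adipokines and their receptors had a median of -0.29 between numbers over 8 genes, 2 higher and 6 lower, with C3 the 1 gene called, and -0.12 between treatments. The others named by the rule were the vascular peptide Apln (-0.52, SE 0.18) at the lower end and Rarres2 (0.08, SE 0.12) and the adiponectin receptor Adipor1 (0.03, SE 0.11) at the upper end. Between treatments, Rbp4, the retinol carrier, was the lowest (-0.39, SE 0.22), and Adipor1 the highest (0.19, SE 0.10). Over the 7 carbonic anhydrases tested beside Car3 the differences ran from -0.32 to 0.24 between numbers and from -0.18 to 0.10 between treatments, none called. Car4, a membrane-bound form below the filter, had 8.0 and 1.1 in the control arrays, then 1.6 and 0.7 in the GDNF arrays, with log2 differences of -1.05 between treatments and -1.36 between numbers. Car11 (-0.32, SE 0.13) and Car2 (-0.18, SE 0.20) were the lowest between numbers and Car7 (0.24, SE 0.15) and Car9 (0.18, SE 0.20) the highest. Car7 (0.10, SE 0.17) and Car9 (-0.18, SE 0.20) were also the extremes between treatments.

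**Figure D4:**
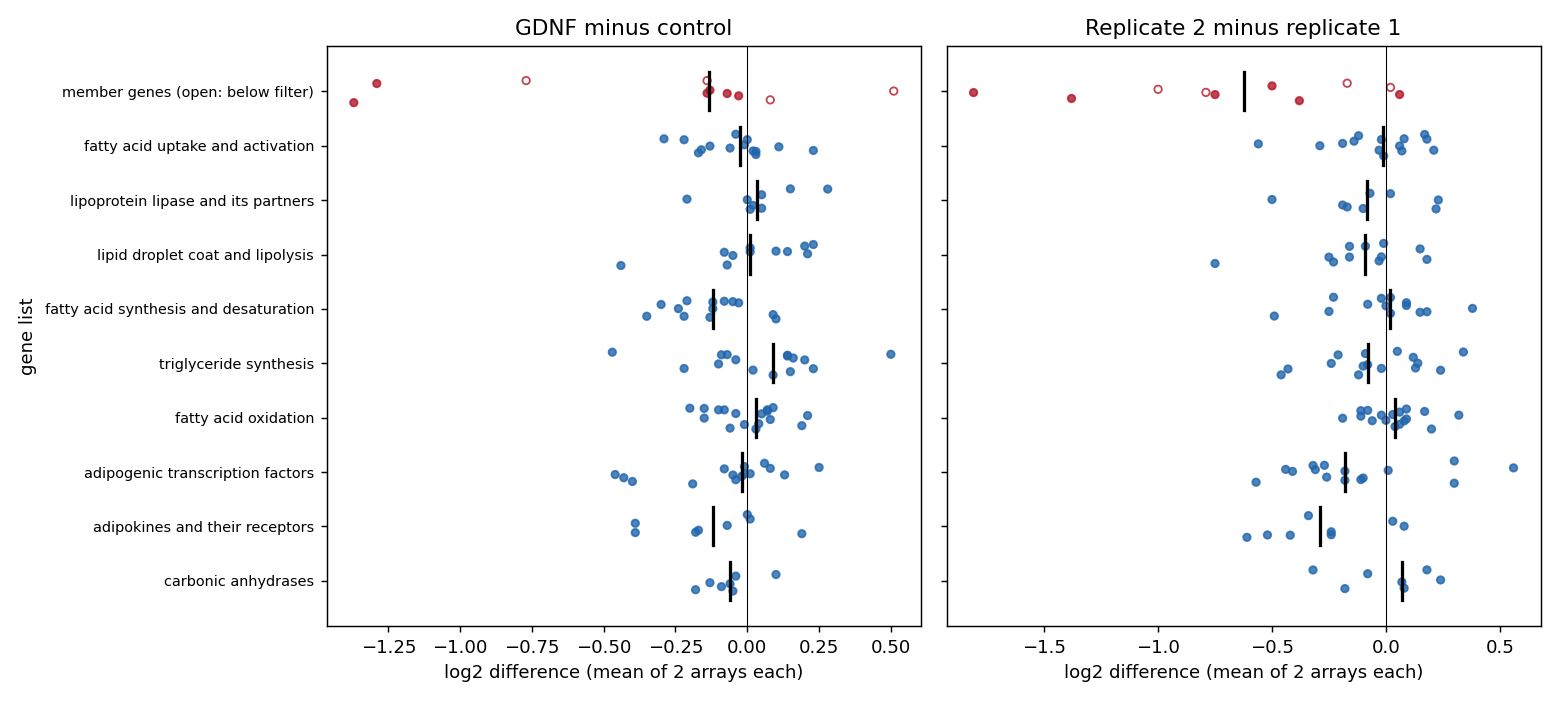
Each point is the log2 difference of 1 gene (brightest probe set) between treatments on the left and replicate numbers on the right, by list, with a black line at the median of the list. Open points are members below the filter. Fabp4 and Car3 lie at -1.29 or lower in both panels, while tested genes of the other lists stay between -0.75 and 0.56.

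Markers of other cell types were read on the same arrays as summed signals. The brightest markers weigh most in a sum. Oocyte markers (4 of 6 listed genes measured, all above the filter) summed to 3742 and 4656 without GDNF, against 4922 and 6239 with it, lowest in control replicate 1 and highest in GDNF replicate 2, the extremes of Fabp4 and Car3 swapped. Gdf9, Zp3 and Zp2 each had these extremes, whereas Bmp15 was highest in GDNF replicate 1 (111.0, against 69.9 in GDNF replicate 2). Granulosa markers (5 of 5) summed to 3240 and 2826, and 3400 and 3186. Both sets place the samples as ovary. Surface epithelium markers (6 of 7) summed to 7030 and 5953 in control samples, compared with 5662 and 5230 in the GDNF samples. Control replicate 1 was the highest and GDNF replicate 2 the lowest, as for Fabp4 and Car3, while the middle arrays were in the reverse order. Krt19 made up most of the sum (4090.6 in control replicate 1). Krt8, Krt18, Krt19 and Msln each had these extremes. Krt7 was highest in control replicate 2 (482.6), and Lrrn4 was lowest in GDNF replicate 1 (596.3).

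Endothelial markers (9 of 10 measured, 7 above the filter) summed to 1467 and 1479 in the control arrays, then 1365 and 1288 in the GDNF arrays. Macrophage markers (10 of 10, 9 above) summed to 701.5 and 638.8, and 646.9 and 609.6. Fat-cell markers (7 of 8, 2 above) summed to 193.7 and 175.1, and 189.5 and 150.8, and brown fat markers (4 of 4, 1 above) to 72.5 and 58.8, and 61.3 and 52.0. Skeletal muscle markers (8 of 8, 0 above) summed to 52.2 and 34.3, and 36.2 and 21.6. Single muscle markers differed in order: Atp2a1, the muscle calcium pump, was at 16.9 and 10.2, and 10.9 and 2.9, while Tnnt3 was highest in GDNF replicate 1 (10.9) and Tnnc2 (5.3) and Myl1 (6.0) in control replicate 2. Acta1 and Pvalb were at or below 1.6 on every array, near 0. The macrophage, fat-cell, brown fat and muscle sums had the arrays in the same order as Fabp4 and Car3. Most single markers of these lists did not. Among macrophage markers only Ptprc and Aif1 had that order, and C1qb was lowest in control replicate 1 (50.9, against 79.8 in GDNF replicate 2). No single brown fat marker had it, and Cidea was highest in GDNF replicate 1 (50.3). The fat-cell list holds the members Adipoq, Plin1 and Cfd, so its sum is not independent of them, and its Pnpla2 was higher in both replicate 2 arrays (91.8 and 100.8 without GDNF, against 89.6 and 104.3 with it). Ucp1, the defining gene of brown fat, had 8.6 to 14.2, below the filter, as were all muscle markers. The part of surface epithelium, macrophages, muscle, fat or any other cells in the differences of Fabp4 and Car3 was not tested. The ratio of 3' to 5' probe sets of beta-actin, a measure of RNA integrity, was 3.76 and 3.34 in control samples, compared with 2.62 and 3.61 in the GDNF samples, highest in control replicate 1 and lowest in GDNF replicate 1. That of Gapdh was 1.28 and 1.22, and 1.11 and 1.44, highest in GDNF replicate 2, the lowest array for Fabp4 and Car3. The part of RNA quality in the differences was not tested.

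**Figure D5:**
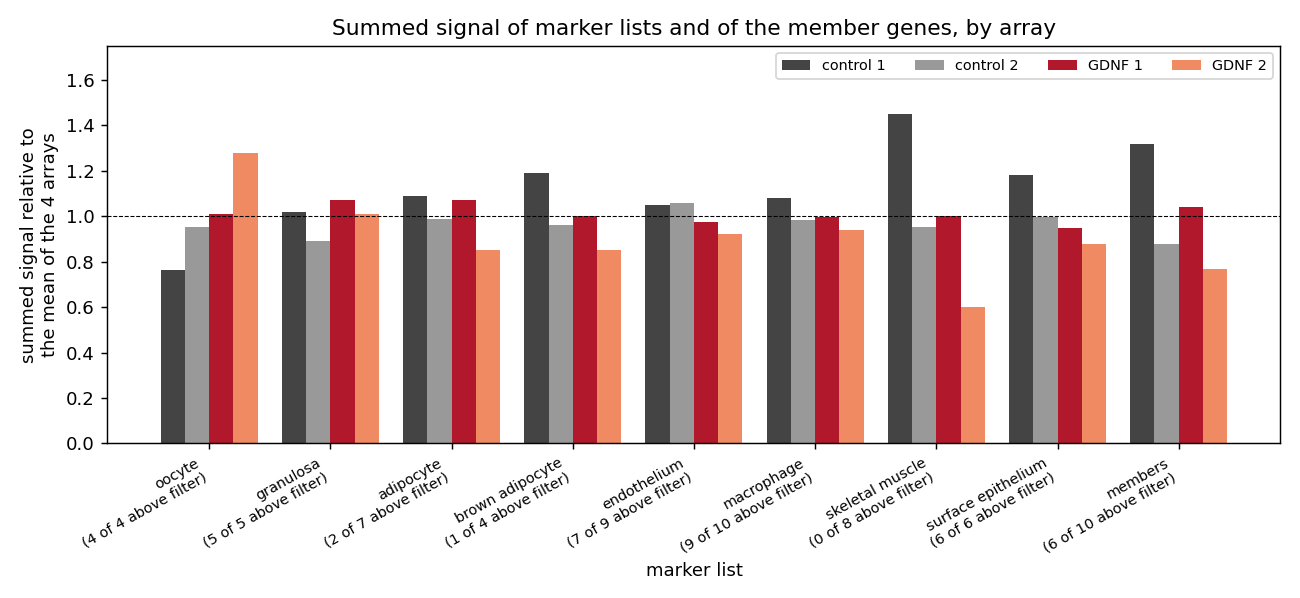
Bars give the summed signal of each marker list, and of the 10 fat-handling genes, on each array relative to the mean of the 4 arrays. The fat-handling sum runs from 1.32 in control replicate 1 to 0.767 in GDNF replicate 2, the muscle sum from 1.45 to 0.599 with all its markers below the filter, and the oocyte sum the other way, from 0.765 to 1.28.

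An exact permutation test of 2 against 2 arrays, two-sided, cannot go below a p of 0.333, and the number of arrays limits every value.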

How the data were processed

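RNA of 4 samples of pooled cultured rat ovaries was hybridised to Affymetrix arrays. The authors computed the deposited linear intensities (signals) with MAS5 (version not given), as named in the submitters' processing notes. The trimmed mean of every array was 125.03 or 125.04. The 57 control probe sets were left out. Detection calls were not used here. Probe sets were named from the platform annotation, and the identifiers of the 10 members were found in the RefSeq gene table. Signals were converted to log2(signal + 1) and 18625 probe sets at or above the 40th percentile were tested with limma 3.58.1 in R 4.3.3 (lmFit, eBayes with a trend, 2 residual degrees of freedom, Benjamini-Hochberg over all tested, threshold 0.05, two-sided), once by treatment and once by replicate number. The scripts were tested on simulated data. The brightest probe set stands for a gene. The members and the lists were chosen with earlier results of these data known. Named genes were all members, the 2 highest and 2 lowest of each list between numbers and the extremes between treatments, and the 5 nearest to Fabp4. The settings varied were the pseudocount (16), the filter (none, or the 60th percentile), the scaling (quantile or median), the trend (none), the replicate number as a block, the mean over probe sets and each sample left out.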

Additional observations from a re-analysis of the deposited data

How the results depend on the processing

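Fabp4 and Car3 kept a negative difference in both comparisons under all alternatives. With the replicate number as a block, 8 probe sets were called between treatments, 1 of them Car3 (limma adjusted p = 0.0469, and 0.111 for Fabp4), and 429 between numbers, with Fabp4 and Car3 among them. That fit leaves 1 residual degree of freedom, and the labels do not say that the numbers pair the samples (correlation of deviations 0.323, across genes). Fabp4 and Car3 were chosen by these same signals in both comparisons. Their p-values and calls, here and with median centring below, are therefore a description and carry no test. Under the block 2 list genes were called between numbers (C3 and Klf4).

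The count of 86 between numbers became 13 without the filter, 2 without the trend, 224 with median centring (Fabp4 among them) and 11 to 251 with a sample left out. It was 11 without GDNF replicate 2 and 251 without control replicate 1. The count of 1 list gene became 0 without the filter, without the trend, with median centring and without GDNF replicate 2 (0 to 1 with a sample left out). The gene called without control replicate 1 was Me1. The member median between numbers was -0.38 with a pseudocount of 16 and ran from -0.68 to -0.39 with a sample left out, and that between treatments from -0.39 to 0.08. No probe set was called between treatments with any sample left out.

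Directions of several other members turned in 1 of the comparisons or both. Between treatments, Lpl ran from -0.33 to 0.26, Cd36 from -0.74 to 0.46, Scd from -0.46 to 0.20, Acsl1 from -0.17 to 0.04, Cfd from -0.61 to 0.76 (including -0.24 without GDNF replicate 1) and Plin1 from -0.45 to 0.17 with each sample left out, and Plin1 was 0.09 as a mean over its probe sets. Between numbers, Pparg ran from -0.36 to 0.41, Acsl1 from -0.04 to 0.17 and Plin1 from -0.47 to 0.12, and Plin1 was 0.02 after quantile normalization and 0.09 as a mean over its probe sets. Some directions held with each sample left out. Between numbers, Lpl (-0.56 to -0.44), Cd36 (-1.04 to -0.45), Cfd (-1.23 to -0.77), Scd (-0.59 to -0.17) and Adipoq (-1.55 to -0.04) stayed lower in replicate 2. Pparg stayed higher with GDNF (0.36 to 0.65). Low signals and 2 arrays a group limit the precision of the dim members.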

Other observations

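Dim genes of the same lists were looked at after their values were seen. Of the 42 list genes whose probe sets lay below the filter, 13 (31.0%) were lower in both replicate 2 arrays and 5 (11.9%) higher, against 24.7% and 10.8% of all probe sets below the filter. Rxra, the partner receptor of Pparg, had 21.4 and 9.0 without GDNF, against 24.3 and 3.7 with it. Fabp7, the brain-type fatty acid carrier, had 5.7 and 2.1, and 6.1 and 1.4. In the other direction, Lipc, the hepatic lipase, had 0.7 and 7.4, and 1.6 and 8.3, and Apoc3, an apolipoprotein that inhibits Lpl, had 8.8 and 19.8, and 9.1 and 21.3, both higher in replicate 2. Thrsp, a lipogenic factor, had 0.7 and 1.6, and 9.7 and 13.2, a log2 difference of 2.55 between treatments with no overlap. At these levels single arrays can move a ratio several fold.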
